A study of Mus musculus with 12 samples.

Results

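The 33 genes described here form the folding machinery of the endoplasmic reticulum (ER) and the unfolded protein response that regulates it. They were taken as a named set of genes, and each was read by the probe set that carries its symbol alone. Of several such probe sets, the brightest on average across the 12 arrays stood for the gene. All 33 genes were measured, out of 19938 genes on the array. By role, 11 are chaperones and folding enzymes, 8 act in ER-associated degradation, 5 are stress sensors or the transcription factors next to them, 6 are targets of the PERK and ATF4 arm, and 3 belong to the translocon.

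The study profiled cells that grow out of mouse bone marrow in granulocyte-macrophage colony-stimulating factor (GM-CSF). Marrow of the tibia and femur of C57B/6 mice was kept for 6 days in 20 ng/ml recombinant GM-CSF, a culture that yields dendritic-like cells (GM-DC) and macrophage-like cells (GM-MF) side by side. Each population was either left unstimulated or given 10 ng/ml lipopolysaccharide (LPS), a bacterial cell wall component, for 4 hours. That makes 4 groups of 3 arrays, all of them exposed to GM-CSF. The age and sex of the mice, the way the populations were separated, and the origin of the replicates (1 or several mice or cultures) are not given in the sources used here, so a p-value measures the spread between arrays, which may be technical.

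The labels of the populations were checked against markers. The mean of 6 dendritic cell markers was 9.72 to 10 on the log2 scale in unstimulated GM-DC against 5.17 to 5.64 in unstimulated GM-MF. The mean of 6 macrophage markers was 5.89 to 6 in unstimulated GM-DC against 9.88 to 10.08 in unstimulated GM-MF. With LPS the dendritic cell markers averaged 9.85 to 9.93 in GM-DC and 6.03 to 6.58 in GM-MF, where 4 of the 6 rose. The macrophage markers averaged 5.78 to 6.15 in LPS-treated GM-DC and 9.95 to 10.1 in LPS-treated GM-MF. Of these 6, LPS raised 2 and lowered 1 in GM-DC, and raised 1 and lowered 1 in GM-MF. Plasma cells carry a very large ER and would bring many of these transcripts with them. The mean of 7 B and plasma cell markers stayed between 3.76 and 4.33 on all 12 arrays, below the array medians of 4.41 to 4.54. Of these 7, Sdc1, also a surface protein of other cells, was called between the cell types, with group means of 6.74 and 5.96 in GM-DC against 8.45 and 8.36 in GM-MF, while Jchain stayed at 2.49 to 2.63. The means of 5 plasmacytoid dendritic cell, 6 mast cell and 6 neutrophil markers on single arrays were 5.06 to 5.51, 3.3 to 3.97 and 4.49 to 4.95. In unstimulated GM-DC 1 plasmacytoid marker was higher and 2 lower, and 1 neutrophil marker higher and 1 lower (all genes 18% and 16.2%). With LPS these counts were 1 and 1, and 1 and 3 (all genes 20.9% and 15.4%). Kit, the 1 mast cell marker called between the unstimulated cell types, averaged 7.33 in GM-DC and 4.27 for GM-MF, and Cpa3 stayed at 2.85 to 2.97. The part of these cells in the results was not tested. In bulk samples like these, fewer cells of a type and less RNA per cell cannot be told apart.

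Proteins bound for secretion or for the cell surface enter the ER through the Sec61 channel and are folded there by BiP (Hspa5), by GRP94 (Hsp90b1) and by disulfide isomerases. When unfolded proteins build up, sensors in the ER membrane respond: IRE1 splices Xbp1 messenger RNA, ATF6 is cut to release a transcription factor, and PERK phosphorylates eIF2 alpha, which slows translation and favours that of ATF4. XBP1 and ATF6 raise chaperones and degradation factors, and ATF4 raises genes for amino acid supply and stress adaptation. The IRE1 and XBP1 arm is known for its part in dendritic cell development, and Toll-like receptor signals such as LPS are known to engage it in macrophages.

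The binding motifs of this response are part of the promoters of many of these genes, so they are shown first. RefSeq promoter sequence of the GRCm38.p6 build, from 250 bases before to 50 bases after the transcription start, was on hand for 28 of the 33 genes. Hyou1, Manf, Derl1, Atf6 and Sec61a1 had no entry. The ER stress response element, searched on both strands as CCAAT, 9 bases of any kind and CCACG, was found in 7 of the 28 genes (25.0%), against 0.137% of 27025 genes with a promoter entry. It occurred in 5 of the 9 chaperone genes that had a promoter entry and in 2 of 7 degradation genes. The following lines give each match read along the motif, with the fixed bases in capitals and the free bases in lower case.
Hspa5: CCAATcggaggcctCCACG
Hsp90b1, distal: CCAATcgcaaggagCCACG
Hsp90b1, proximal: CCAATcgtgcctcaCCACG
Pdia6: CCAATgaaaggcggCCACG
Dnajc3: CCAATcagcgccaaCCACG
Creld2: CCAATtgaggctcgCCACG
Syvn1: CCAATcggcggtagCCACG
Derl3: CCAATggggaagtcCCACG
The match of Hspa5 lay 65 to 47 bases before its start, and those of Hsp90b1 lay 212 to 194 and 107 to 89 bases before.

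The second form of the element, searched as ATTGGNCCACG with N for any base, was found in 2 of the 28 genes (7.14%), Dnajb11 and Herpud1, against 0.0444% of all genes. The site bound by ATF4 with C/EBP partners, searched as TGATGNAA, was found in 4 of the 28 (14.3%), Asns, Chac1, Herpud1 and Trib3, against 4.51%. Of the 6 PERK and ATF4 arm targets, 3 held it. An XBP1 element, searched as TGACGTGG, was in none of the 28 windows and in those of 0.714% of all genes. These letters were sought on both strands, and none of the 14 matches overlapped another. A match is a description of the sequence and not a measured binding site. The 28 genes were chosen for their part in this response, so a share above that of all genes is no test of it.

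Promoters of 4 genes on which the results turn are printed whole for their 250 bases before the start, 5′ to 3′ along the gene, with every matched motif in capitals. Hspa5 and Hsp90b1 stand for the chaperones, Herpud1 carries both the second stress element and the ATF4 site, and Asns carries the ATF4 site close to its start. They lie on GRCm38.p6 at chr2:34771840-34772089 (plus strand), chr10:86705445-86705694 (minus strand), chr8:94386179-94386428 (plus strand) and chr6:7693210-7693459 (minus strand).
Hspa5: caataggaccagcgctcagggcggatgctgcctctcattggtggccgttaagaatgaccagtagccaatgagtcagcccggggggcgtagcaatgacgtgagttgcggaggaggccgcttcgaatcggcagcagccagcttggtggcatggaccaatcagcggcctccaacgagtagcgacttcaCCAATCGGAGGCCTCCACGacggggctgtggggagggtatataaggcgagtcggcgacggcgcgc
Hsp90b1: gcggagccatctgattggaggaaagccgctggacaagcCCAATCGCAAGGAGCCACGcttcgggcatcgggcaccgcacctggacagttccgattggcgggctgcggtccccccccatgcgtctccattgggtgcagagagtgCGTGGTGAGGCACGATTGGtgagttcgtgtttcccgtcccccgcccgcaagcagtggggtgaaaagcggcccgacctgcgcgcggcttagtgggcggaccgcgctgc
Herpud1: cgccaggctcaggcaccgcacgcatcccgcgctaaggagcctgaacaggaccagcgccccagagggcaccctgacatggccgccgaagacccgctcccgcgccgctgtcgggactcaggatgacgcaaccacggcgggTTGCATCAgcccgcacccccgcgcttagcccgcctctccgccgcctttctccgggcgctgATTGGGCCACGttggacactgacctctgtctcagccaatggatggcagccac
Asns: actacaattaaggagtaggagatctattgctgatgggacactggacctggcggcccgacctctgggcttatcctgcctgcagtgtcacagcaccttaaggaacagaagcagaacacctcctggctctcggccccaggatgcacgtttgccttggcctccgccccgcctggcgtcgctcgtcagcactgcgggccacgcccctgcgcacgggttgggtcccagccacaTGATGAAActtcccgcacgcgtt

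**Figure D1:**
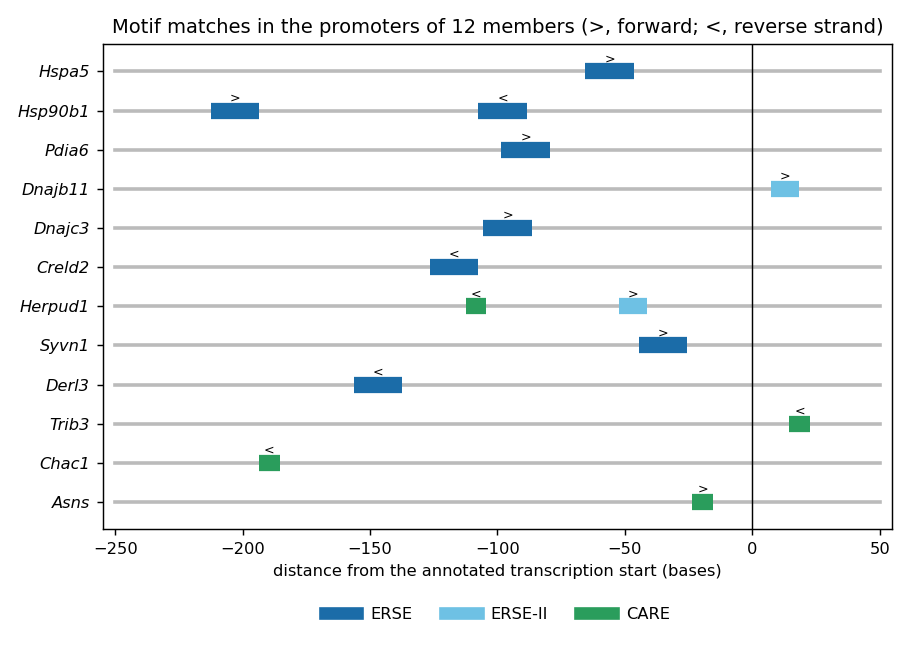
Position of each motif match in the promoters of the 12 genes that held one, in bases from the transcription start (0, vertical line), coloured by motif (ERSE, the ER stress response element; ERSE-II, its second form; CARE, the ATF4 site). The Hspa5 match lies 65 to 47 bases before the start, and the Asns site lies 23 to 16 bases before it.

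Values are robust multi-array average (RMA) expression levels on a log2 scale, so a difference of 1 is a factor of 2. Calls rest on limma's moderated test over all genes with Benjamini-Hochberg adjustment, at a threshold of 0.05. Differences are given with the standard error (SE) of the fit, and each group has n = 3. Levels are compared between groups for 1 gene at a time and not between genes.

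Most of these genes differed between GM-DC and GM-MF, and fewer moved with LPS. Without stimulation 9 of the 33 were higher in GM-DC and 19 were lower, where 18% of all genes were called higher and 16.2% lower. With LPS 10 were higher in GM-DC and 15 lower, against 20.9% and 15.4% of all genes. Of the 33, only Derl3 has a mean level below the median of all genes. Among the 9969 genes with a mean above that median, fitted alone, 6293 were called without stimulation, 3315 of them higher in GM-DC. With LPS 6483 were called, 3835 of them higher. Against these shares the 33 had more genes lower and not more genes higher. The median difference of the 33 genes was -0.451 without stimulation and -0.276 with LPS, beside all-gene medians of -0.0114 and 0.00183. Both comparisons have arrays of their own, and 8 genes were higher in GM-DC in both, 13 lower in both and 1, Dnajb9, changed side. The same overlap was not counted over all genes, so it is not read as a trait of the 33.

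LPS raised 3 of the 33 genes in GM-DC and lowered 4, against 5.23% and 4.49% of all genes. The share of all genes lowered was 2.61% without array 1 and 2.76% without array 2 of unstimulated GM-DC, and 2.97% without array 1 of LPS-treated GM-DC. In GM-MF LPS raised 3 and lowered 9, against 6.54% and 10.8%. Among the 9969 genes with a mean above the median, fitted alone, 2214 were called in GM-DC, 1122 of them raised. In GM-MF 3624 were called, 1277 of them raised. The LPS counts of the 33 genes are near these shares. Hspa5 rose in both cell types, Herpud1 and Eif2ak3 fell in both, and 17 genes passed in neither. This overlap was not counted over all genes either. The median LPS difference was -0.0733 in GM-DC and -0.121 in GM-MF, beside all-gene medians of -0.00788 and -0.0183. Without array 1 or 3 of unstimulated GM-DC, or array 1 or 2 of LPS-treated GM-DC, 1 gene rose in GM-DC. The LPS response itself differed between the cell types for 5 genes, with 4 more positive in GM-DC and 1 more negative, where 4.53% and 3.06% of all genes were called. The number more positive in GM-DC was 1 without array 2 of LPS-treated GM-DC. It was 2 without array 1 of any group or without array 2 of unstimulated GM-MF, and 8 with the replicate number as a block within each cell type. The difference of responses shares its arrays with the other comparisons. Among the same 9969 genes, 1769 responses were called different, 1122 of them more positive in GM-DC. After cyclic loess normalization the share of called genes that were higher moved from 57.6% to 47.2% between the cell types under LPS, and from 37.7% to 49.4% for LPS in GM-MF.

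**Figure D2:**
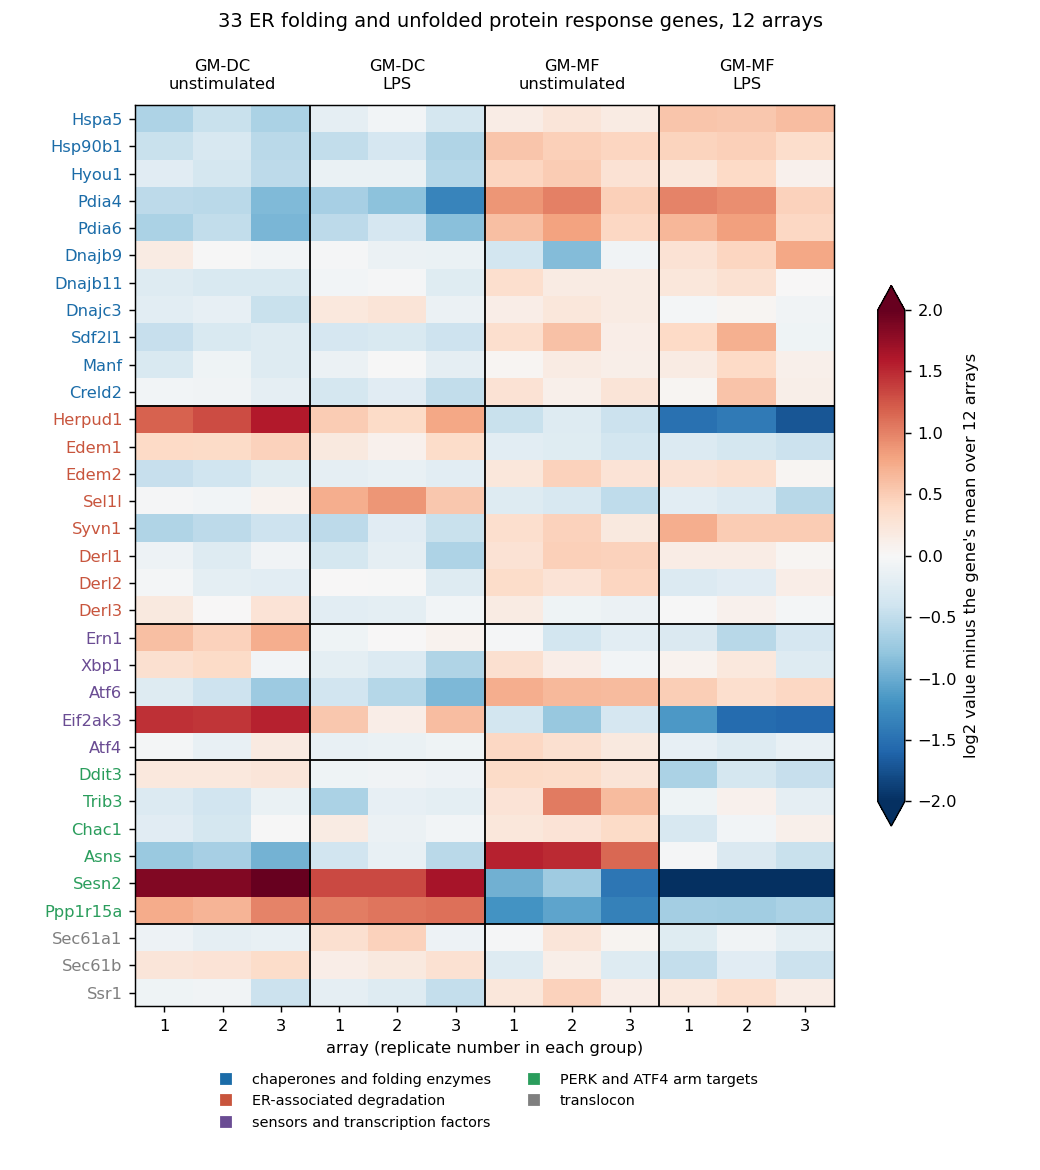
Heat map of the 33 genes (rows, grouped by role) on the 12 arrays (columns), as log2 level minus the mean of that gene over the 12 arrays. Most chaperone rows are lower on all 6 GM-DC arrays, and Sesn2, Ppp1r15a, Eif2ak3 and Herpud1 are higher on them.

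The chaperones and folding enzymes were lower in GM-DC as a group. Of the 11 genes, 9 were lower and 1 higher without stimulation (all genes 16.2% and 18%). With LPS 10 were lower and 0 higher (all genes 15.4% and 20.9%). The median differences of the 11 were -0.696 and -0.607. Of the 9969 genes with a mean above the median, fitted alone, 6293 were called without stimulation, 3315 of them higher. With LPS 6483 of those were called, 3835 of them higher. Pdia4 and Pdia6 differed more than 2-fold in both comparisons. LPS raised 2 of the 11 in each cell type and lowered 0. Of all genes it raised 5.23% and lowered 4.49% in GM-DC, and 6.54% and 10.8% in GM-MF. The mean of the 11 was lowest on the array numbered 3 in all 4 groups, for example 8.47 against 8.60 and 8.65 in unstimulated GM-DC and 9.15 against 9.23 and 9.23 in unstimulated GM-MF.

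BiP, encoded by Hspa5, is the main Hsp70 chaperone of the ER and binds the stress sensors and keeps them inactive in resting cells. Its level was 10.53, 10.70 and 10.51 in unstimulated GM-DC and 10.97, 11.09 and 10.80 after LPS. In GM-MF it was 11.30, 11.39 and 11.31 unstimulated and 11.70, 11.69 and 11.76 after LPS. All GM-MF arrays lay above all GM-DC arrays, and within each cell type the LPS arrays lay above the unstimulated ones. Hspa5 was 1.69-fold lower in GM-DC without stimulation (log2 difference -0.75 ± 0.10 SE, adjusted p = 1.87e-05) and 1.70-fold lower with LPS (-0.76 ± 0.10, adjusted p = 1.58e-05). LPS raised it 1.30-fold in GM-DC (0.38 ± 0.10, adjusted p = 0.0258) and 1.31-fold in GM-MF (0.38 ± 0.10, adjusted p = 0.0137). The rise in GM-DC was not called without array 1 or 3 of unstimulated GM-DC or array 1 or 2 of LPS-treated GM-DC (adjusted p 0.0807 to 0.125). The rise in GM-MF was not called without array 1 or 3 of unstimulated GM-MF or array 3 of LPS-treated GM-MF (adjusted p 0.0505 to 0.0519).

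Pdia6 and Pdia4 are disulfide isomerases, which form and rearrange disulfide bonds in new proteins. Pdia6 read 8.34, 8.48 and 8.06 in unstimulated GM-DC and 9.58, 9.78 and 9.38 in unstimulated GM-MF. After LPS it read 8.45, 8.64 and 8.13 in GM-DC and 9.64, 9.79 and 9.39 in GM-MF. The cell types did not overlap in either state, and the arrays numbered 3 were the lowest of their groups. Pdia6 was 2.45-fold lower in unstimulated GM-DC (-1.29, adjusted p = 7.85e-06) and 2.30-fold lower with LPS (-1.20, adjusted p = 1.64e-05). Pdia4 read 7.87, 7.85 and 7.51 in unstimulated GM-DC against 9.27, 9.39 and 8.87 in unstimulated GM-MF, and 7.72, 7.57 and 7.06 against 9.38, 9.31 and 8.84 after LPS. It was 2.71-fold and 3.32-fold lower in GM-DC. A second Pdia4 probe set was near the low end of the arrays, with group means of 3.12 to 3.36.

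GRP94 (Hsp90b1), the ER form of Hsp90, helps Toll-like receptors and integrins to fold. It spanned 10.28 to 10.49 in unstimulated GM-DC against 11.24 to 11.36 in unstimulated GM-MF, and 10.21 to 10.48 against 11.17 to 11.29 with LPS. The difference was 1.89-fold without stimulation (-0.92, adjusted p = 2.49e-06) and 1.87-fold with LPS (-0.90, adjusted p = 2.91e-06). Hyou1 (GRP170), the nucleotide exchange factor of BiP, was 1.71-fold and 1.43-fold lower in GM-DC. Sdf2l1, a partner of BiP and Dnajb11, was 1.62-fold and 1.61-fold lower. Dnajb11, a co-chaperone of BiP, was 1.42-fold and 1.23-fold lower. Manf, a secreted ER protein that binds BiP, was 1.25-fold lower in both states. Creld2, an ER protein induced by stress, was 1.52-fold lower with LPS (adjusted p = 0.00169) and not called without it (-0.31, adjusted p = 0.0856). None of these 6 genes was called for LPS in either cell type.

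Some of these smaller differences were lost under other settings. Manf was not called without stimulation when array 1 or 3 of GM-DC or array 2 or 3 of GM-MF was left out (adjusted p 0.0786 to 0.112). With LPS Manf was not called without array 1 or 3 of GM-DC or array 2 of GM-MF (adjusted p 0.0717 to 0.14). With LPS Dnajb11 was not called without array 1 or 3 of LPS-treated GM-DC, array 1 or 2 of LPS-treated GM-MF, array 1 or 2 of unstimulated GM-DC or array 3 of unstimulated GM-MF (adjusted p 0.0513 to 0.154). It was also not called after quantile normalization (-0.23, adjusted p = 0.0764), with array weights (0.0699) or with only the arrays compared (0.0853). The Manf call with LPS was lost with only the arrays compared too (adjusted p = 0.0595).

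Dnajb9 (ERdj4), a co-chaperone of BiP and a known target of XBP1, changed side between the states. It read 9.06, 8.89 and 8.84 in unstimulated GM-DC and 8.87, 8.77 and 8.76 after LPS. In GM-MF it read 8.53, 8.02 and 8.82 unstimulated and 9.18, 9.32 and 9.67 after LPS. The GM-MF arrays rose above all GM-DC arrays with LPS and lay below all unstimulated GM-DC arrays before. LPS raised Dnajb9 1.91-fold in GM-MF (0.93 ± 0.17, adjusted p = 0.00129), while the GM-DC difference was -0.13 ± 0.17 (adjusted p = 0.803). The difference of the LPS responses was -1.06 ± 0.24 (adjusted p = 0.0135). Dnajb9 was 1.39-fold higher in GM-DC without stimulation (adjusted p = 0.0465) and 1.5-fold lower with LPS (adjusted p = 0.0136).

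The unstimulated Dnajb9 difference was weak: it was not called when any unstimulated GM-DC array, any LPS-treated GM-DC array, array 1 or 2 of unstimulated GM-MF or array 2 of LPS-treated GM-MF was left out (adjusted p 0.0559 to 0.233). The lowest value was 8.02 on array 2 of unstimulated GM-MF, and without that array the difference was 0.25. Median centring (adjusted p = 0.0616) and cyclic loess (adjusted p = 0.0944) ended the call too. With LPS the difference was not called without array 3 of LPS-treated GM-MF (-0.45, adjusted p = 0.0775).

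Dnajc3 (P58IPK), a further co-chaperone of BiP, read 9.65, 9.70 and 9.41 in unstimulated GM-DC and 10.07, 10.12 and 9.74 after LPS. In GM-MF it read 9.99, 10.08 and 10.03 unstimulated and 9.82, 9.90 and 9.79 after LPS. The GM-DC values rose with LPS without overlap, and the LPS-treated cell types overlapped. Dnajc3 was 1.37-fold lower in unstimulated GM-DC (-0.45, adjusted p = 0.00584), and with LPS the difference was 0.14 (adjusted p = 0.406). LPS raised it 1.31-fold in GM-DC (0.39 ± 0.12, adjusted p = 0.0442), the GM-MF difference was -0.20 (adjusted p = 0.309), and the LPS responses differed by 0.59 ± 0.16 (adjusted p = 0.0379). The GM-DC rise was not called when any array other than array 3 of LPS-treated GM-DC or array 2 of unstimulated GM-MF was left out (adjusted p 0.0546 to 0.189). The difference of responses was not called when any array other than array 2 of unstimulated GM-DC or array 3 of LPS-treated GM-DC was left out (adjusted p 0.0533 to 0.0999). After median centring neither was called (adjusted p 0.0647 and 0.0783).

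**Figure D3:**
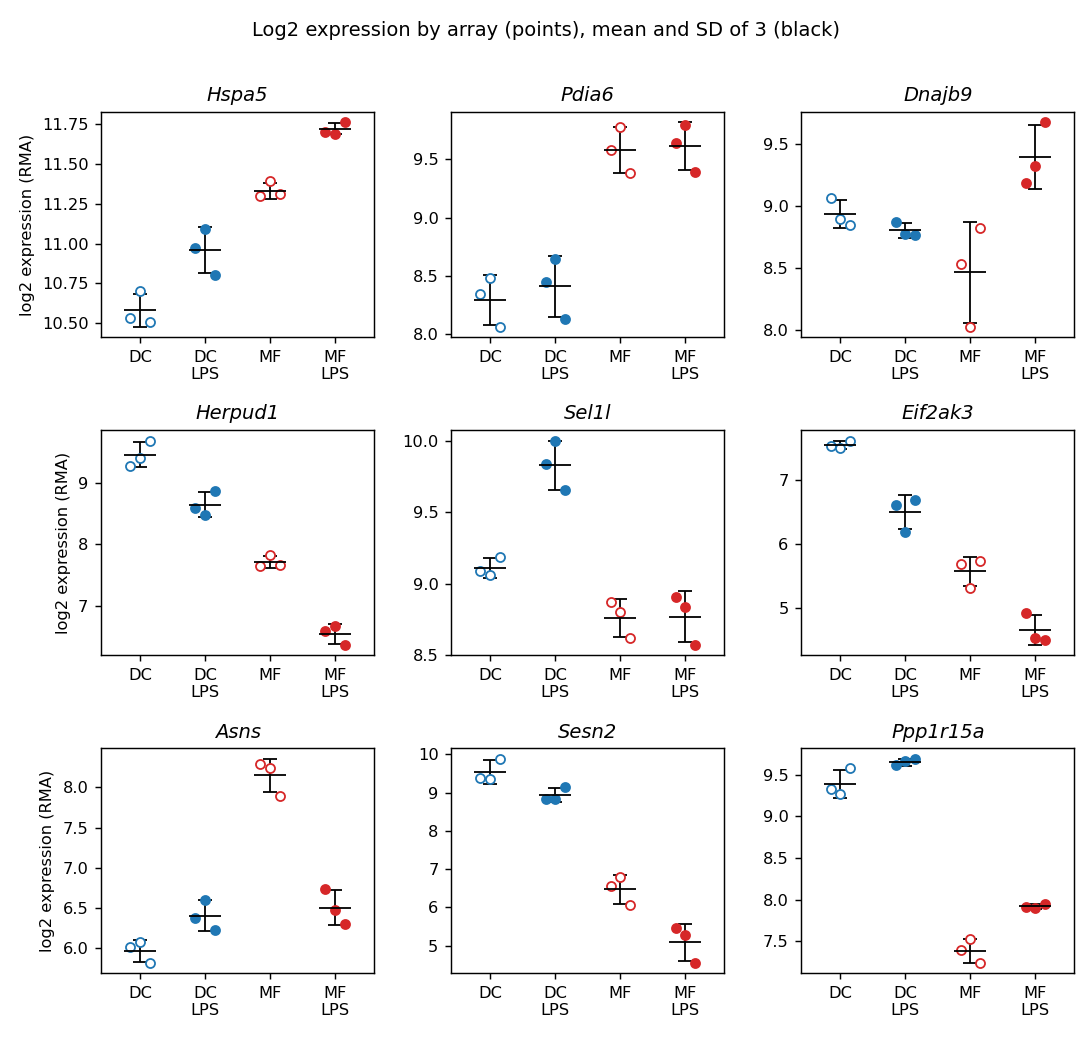
Log2 level of 9 genes on each array (open circles unstimulated, filled circles LPS; blue GM-DC, red GM-MF; 3 arrays a group; the axes do not start at 0). Hspa5 and Pdia6 are lower on all GM-DC arrays, Dnajb9 rises in GM-MF, Sel1l rises in GM-DC, and Asns falls in GM-MF to the GM-DC range.

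Degradation genes differed between the cell types in both directions. Of 8 genes, 3 were higher and 4 lower in unstimulated GM-DC (all genes 18% and 16.2%), and 3 were higher and 3 lower with LPS (all genes 20.9% and 15.4%). LPS raised 1 and lowered 1 in GM-DC (all genes 5.23% and 4.49%), and raised 0 and lowered 2 in GM-MF (all genes 6.54% and 10.8%). ER-associated degradation recognises misfolded proteins, moves them back through the membrane and passes them to the proteasome.

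Herpud1, a scaffold of the ligase complex, was the most different of the 8 between the cell types. It read 9.27, 9.40 and 9.68 in unstimulated GM-DC and 7.65, 7.83 and 7.66 in unstimulated GM-MF. After LPS it read 8.59, 8.47 and 8.86 in GM-DC and 6.60, 6.68 and 6.37 in GM-MF. No 2 groups overlapped. Herpud1 was 3.34-fold higher in unstimulated GM-DC (1.74 ± 0.13, adjusted p = 4.65e-08) and 4.26-fold higher with LPS (2.09 ± 0.13, adjusted p = 5.75e-09). LPS lowered it 1.75-fold in GM-DC (-0.81 ± 0.13, adjusted p = 0.000906) and 2.24-fold in GM-MF (-1.16 ± 0.13, adjusted p = 2.0e-05). The LPS responses differed by 0.35 (adjusted p = 0.358), which was not called.

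Sel1l, the adaptor that holds the Hrd1 ligase, was raised by LPS in GM-DC. It read 9.09, 9.06 and 9.19 in unstimulated GM-DC and 9.84, 10.00 and 9.66 after LPS, a 1.65-fold rise (0.72 ± 0.12, adjusted p = 0.0011). In GM-MF it read 8.87, 8.80 and 8.62 unstimulated and 8.91, 8.84 and 8.57 after LPS (difference 0.01, adjusted p = 0.975). The LPS responses differed by 0.71 ± 0.17 (adjusted p = 0.0179). That call was not made without array 2 of LPS-treated GM-DC, array 1 of unstimulated GM-MF or array 3 of LPS-treated GM-MF (adjusted p 0.0502 to 0.0518). Sel1l was 2.08-fold higher in GM-DC with LPS (adjusted p = 3.68e-06) and 1.27-fold higher without (adjusted p = 0.0351). The unstimulated difference was not called without any 1 of the GM-DC arrays or without array 2 or 3 of GM-MF (adjusted p 0.0557 to 0.151), or after cyclic loess (adjusted p = 0.0851).

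Syvn1 encodes the Hrd1 ligase itself and went the other way from its adaptor between the cell types. It spanned 7.66 to 7.84 in unstimulated GM-DC against 8.45 to 8.72 in unstimulated GM-MF, a 1.79-fold difference (-0.84, adjusted p = 2.26e-05), and was 1.97-fold lower in GM-DC with LPS (-0.98, adjusted p = 4.52e-06). Edem1, a lectin that picks out misfolded glycoproteins, was 1.62-fold higher in unstimulated GM-DC and 1.49-fold higher with LPS. Edem2, the mannosidase that starts the trimming, was 1.61-fold and 1.32-fold lower.

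The derlins are membrane proteins of the retrotranslocation channel. Derl1 was 1.47-fold lower in unstimulated GM-DC and 1.41-fold lower with LPS. Derl2 was 1.42-fold lower in unstimulated GM-DC (adjusted p = 0.00405), and with LPS the cell types differed by 0.04 (adjusted p = 0.86). LPS lowered Derl2 1.39-fold in GM-MF (adjusted p = 0.012), a call that was not made without array 3 of unstimulated GM-MF or array 1 or 2 of LPS-treated GM-MF (adjusted p 0.0521 to 0.0597). The responses of Derl2 differed by 0.54 (adjusted p = 0.0772), called with the replicate number as a block within each cell type (adjusted p = 0.0416). Derl3 was near the array medians on all 12 arrays, at 4.08 to 4.56, and passed in no comparison. Array values have no call of presence here, so such a level is not read as absence.

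The 5 sensors and transcription factors showed opposite cell type differences for the sensor kinases and for ATF6. LPS lowered 3 of them in GM-DC (all genes 4.49%) and 2 in GM-MF (all genes 10.8%). Eif2ak3 encodes PERK. It read 7.52, 7.49 and 7.61 in unstimulated GM-DC and 6.61, 6.19 and 6.68 after LPS, and 5.69, 5.31 and 5.73 in unstimulated GM-MF and 4.92, 4.53 and 4.50 after LPS. No 2 groups overlapped. Eif2ak3 was 3.90-fold higher in unstimulated GM-DC (1.96 ± 0.15, adjusted p = 6.0e-08) and 3.59-fold higher with LPS (1.84, adjusted p = 1.2e-07). LPS lowered it 2.06-fold in GM-DC (-1.05, adjusted p = 0.00037) and 1.90-fold in GM-MF (-0.92, adjusted p = 0.000552).

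Ern1 encodes IRE1 alpha, the kinase and endoribonuclease that splices Xbp1. It read 7.38, 7.23 and 7.50 in unstimulated GM-DC and 6.69, 6.78 and 6.84 after LPS, against 6.76, 6.41 and 6.57 and 6.49, 6.22 and 6.44 in GM-MF. The LPS-treated GM-DC arrays overlapped the unstimulated GM-MF arrays. Ern1 was 1.73-fold higher in unstimulated GM-DC (0.79, adjusted p = 5.83e-05) and 1.31-fold higher with LPS (0.39, adjusted p = 0.016), and LPS lowered it 1.51-fold in GM-DC (-0.60, adjusted p = 0.0035). In GM-MF the LPS difference was -0.20 (adjusted p = 0.32), and the responses were not called different (-0.40, adjusted p = 0.195). The difference under LPS was not called without array 3 of LPS-treated GM-DC or array 2 of LPS-treated GM-MF (adjusted p 0.0549 and 0.0815), or after median centring (0.34, adjusted p = 0.0559) or cyclic loess normalization (0.23, adjusted p = 0.154).

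Xbp1 encodes the transcription factor that IRE1 activates by splicing. Its probe set gives 1 value for the gene, so spliced and unspliced forms were not separated. It read 8.34, 8.41 and 7.98 in unstimulated GM-DC and 8.34, 8.16 and 7.98 in unstimulated GM-MF, and the groups overlapped (0.09, 95% interval -0.24 to 0.42, adjusted p = 0.751). After LPS it read 7.83, 7.75 and 7.43 in GM-DC and 8.10, 8.24 and 7.77 in GM-MF. LPS lowered it 1.49-fold in GM-DC (-0.58 ± 0.15, adjusted p = 0.0268). The GM-MF difference was -0.12 (95% interval -0.45 to 0.21, adjusted p = 0.709), and the responses were not called different (adjusted p = 0.284). The fall in GM-DC was not called without array 1 or 2 of unstimulated GM-DC or array 2 or 3 of LPS-treated GM-DC (adjusted p 0.0569 to 0.122). Under LPS the cell types differed by -0.37 (adjusted p = 0.0779), which was called after cyclic loess (-0.53, adjusted p = 0.00809) and after quantile normalization (-0.40, adjusted p = 0.0416).

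Atf6, the membrane-bound transcription factor, was lower in GM-DC, at 6.57 to 7.05 unstimulated and 6.40 to 6.92 with LPS against 7.94 to 8.03 and 7.64 to 7.80 in GM-MF. The differences were 2.19-fold (-1.13, adjusted p = 9.7e-06) and 2.05-fold (-1.03, adjusted p = 2.39e-05), with no LPS call in either cell type. Atf4, whose translation rises when eIF2 alpha is phosphorylated, read 10.03, 9.95 and 9.82 in unstimulated GM-MF and 9.46, 9.37 and 9.48 after LPS. LPS lowered it 1.41-fold there (-0.49 ± 0.10, adjusted p = 0.00315), and in GM-DC the difference was -0.11 (adjusted p = 0.677). Atf4 was 1.24-fold lower in unstimulated GM-DC (adjusted p = 0.0278). That call was not made without array 1 or 2 of unstimulated GM-DC or array 1 or 2 of unstimulated GM-MF (adjusted p 0.0617 to 0.137), or after quantile normalization (adjusted p = 0.146).

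Most targets of the PERK and ATF4 arm fell with LPS in GM-MF. Of the 6 genes 5 fell there and 1 rose, with a median of -0.76, where 10.8% of all genes fell and 6.54% rose. Of the 9969 genes with a mean above the median, fitted alone, 3624 were called there, 1277 of them raised. In GM-DC none of the 6 was called and the median was 0.0597. Of all genes 5.23% rose and 4.49% fell there, so no call among 6 is near that share. All genes had medians of -0.0183 and -0.00788. With the replicate number as a block within each cell type, Asns (0.43, adjusted p = 0.012) and Sesn2 (-0.60, adjusted p = 0.00593) were called in GM-DC. The difference between the responses was called for Asns and Ddit3, and with that block for Sesn2 and Chac1 too. The mean of the dendritic cell markers in GM-MF went from 5.17 to 5.64 unstimulated to 6.03 to 6.58 with LPS, and its part in these changes was not tested. Of the 5 that fell, Asns, Trib3 and Chac1 hold the ATF4 site in the promoter window. Herpud1, the other gene with the site, fell in both cell types. Ddit3 and Sesn2 fell in GM-MF without a match to the letters searched. A link between the site and these falls was not tested.

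Asns encodes asparagine synthetase and is a textbook target of ATF4. It read 8.29, 8.24 and 7.90 in unstimulated GM-MF and 6.73, 6.47 and 6.30 after LPS. In GM-DC it read 6.01, 6.08 and 5.81 unstimulated and 6.37, 6.60 and 6.22 after LPS. The unstimulated GM-MF arrays stood alone at the top, and the LPS arrays of both cell types overlapped. LPS lowered Asns 3.12-fold in GM-MF (-1.64 ± 0.14, adjusted p = 1.49e-06), and in GM-DC the difference was 0.43 ± 0.14 (adjusted p = 0.0787), which was called with the replicate number as a block (adjusted p = 0.0183). The LPS responses differed by 2.08 ± 0.20 (adjusted p = 1.3e-05). Asns was 4.53-fold lower in unstimulated GM-DC (-2.18 ± 0.14, adjusted p = 8.16e-09), and with LPS the difference was -0.10 (95% interval -0.41 to 0.20, adjusted p = 0.652).

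Sesn2 encodes a sestrin, which restrains mTORC1 when amino acids are short. It had the largest cell type difference of the 33 genes in both states. It read 9.37, 9.36 and 9.89 in unstimulated GM-DC and 8.83, 8.84 and 9.16 after LPS, and 6.55, 6.80 and 6.07 in unstimulated GM-MF and 5.46, 5.28 and 4.54 after LPS. No 2 groups overlapped. Sesn2 was 8.37-fold higher in unstimulated GM-DC (3.07 ± 0.23, adjusted p = 3.99e-08) and 14.4-fold higher with LPS (3.85 ± 0.23, adjusted p = 3.01e-09). LPS lowered it 2.60-fold in GM-MF (-1.38, adjusted p = 0.00059). In GM-DC the difference was -0.60 (adjusted p = 0.149), and the responses differed by 0.79 ± 0.33 (adjusted p = 0.199). With the replicate number as a block within each cell type both were called (adjusted p 0.00593 and 0.0107).

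Ppp1r15a (GADD34), the phosphatase subunit that removes phosphate from eIF2 alpha, was the target that rose in GM-MF. It read 7.40, 7.53 and 7.24 in unstimulated GM-MF and 7.91, 7.90 and 7.95 after LPS, a 1.44-fold rise (0.53 ± 0.11, adjusted p = 0.00256). In GM-DC it read 9.33, 9.27 and 9.58 unstimulated and 9.61, 9.66 and 9.69 after LPS (0.26, adjusted p = 0.169). It was 3.99-fold higher in unstimulated GM-DC (2.0 ± 0.11, adjusted p = 7.86e-10) and 3.33-fold higher with LPS (1.74, adjusted p = 3.94e-09). The difference of the responses was -0.26 (adjusted p = 0.412).

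Ddit3 encodes CHOP, a transcription factor tied to cell death in lasting ER stress. It read 7.76, 7.75 and 7.64 in unstimulated GM-MF and 6.75, 7.04 and 6.93 after LPS, a 1.75-fold fall (-0.81, adjusted p = 2.68e-05). In GM-DC it read 7.60, 7.60 and 7.63 unstimulated and 7.30, 7.32 and 7.29 after LPS (-0.30, adjusted p = 0.0609), and these groups did not overlap. The responses differed by 0.51 ± 0.13 (adjusted p = 0.0315). That call was lost when any array other than array 3 of LPS-treated GM-DC, array 3 of unstimulated GM-MF or array 2 of LPS-treated GM-MF was left out (adjusted p 0.0516 to 0.0765), and after median centring, quantile or cyclic loess normalization (adjusted p 0.0619 to 0.106). Ddit3 was 1.32-fold higher in GM-DC with LPS (adjusted p = 0.00345; 0.0679 after cyclic loess), and unstimulated the difference was -0.11 (adjusted p = 0.459).

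Trib3, a pseudokinase induced by ATF4 and CHOP, read 5.35, 6.12 and 5.72 in unstimulated GM-MF and 5.0, 5.17 and 4.90 after LPS, a 1.64-fold fall (adjusted p = 0.00897). Chac1, an enzyme that degrades glutathione, read 5.20, 5.25 and 5.35 and then 4.65, 4.92 and 5.07, a 1.31-fold fall (adjusted p = 0.0466). In GM-DC both lay near the median of all genes on these arrays, 4.72 to 4.87. They were 1.88-fold and 1.41-fold lower in unstimulated GM-DC, and with LPS neither was called. The fall of Chac1 was not called without any 1 of the unstimulated or LPS-treated GM-MF arrays other than array 3 of the latter, or without array 1 of unstimulated GM-DC or array 2 or 3 of LPS-treated GM-DC (adjusted p 0.0518 to 0.2), or under 3 other normalizations (adjusted p 0.0891 to 0.0921). The difference of responses was called for neither (adjusted p 0.154 and 0.0646), and for Chac1 it was called with the replicate number as a block within each cell type (adjusted p = 0.0405).

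**Figure D4:**
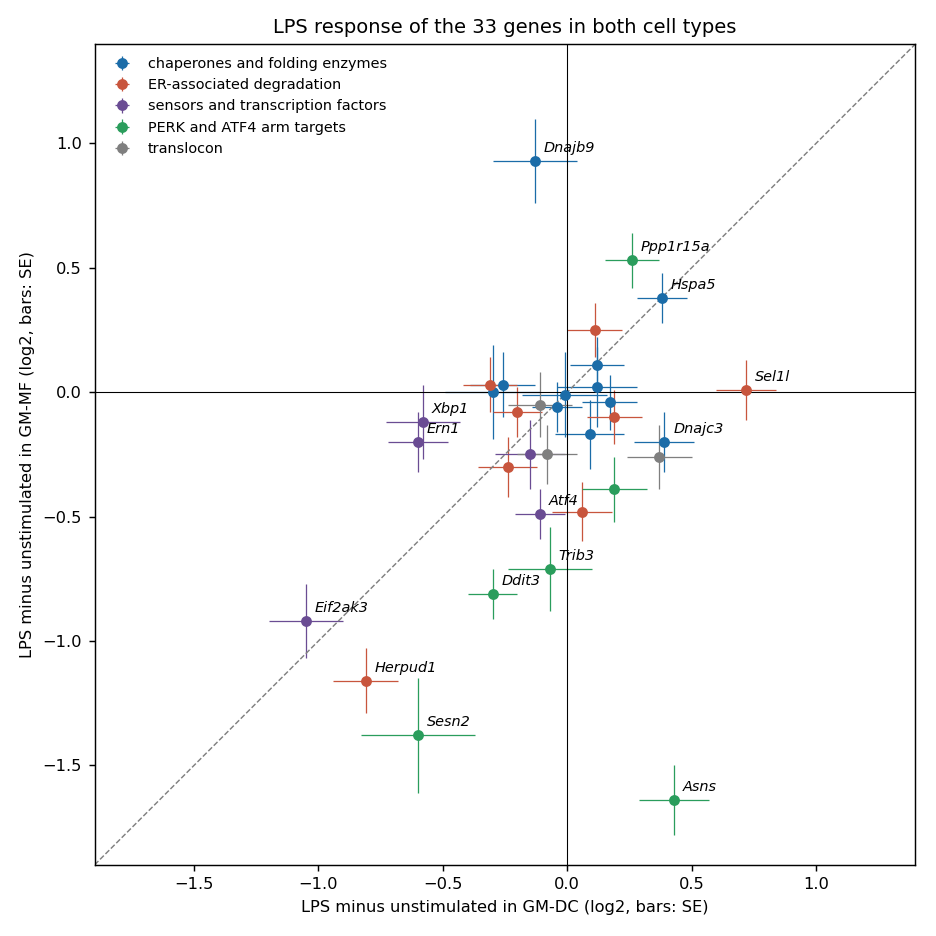
LPS response of each of the 33 genes in GM-DC (x axis) against GM-MF (y axis), as log2 differences with standard errors, coloured by role; the dashed line marks equal responses. Asns and Dnajb9 lie farthest from the line, and Hspa5 lies on it.

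Of the 3 translocon genes, 1 was higher and 1 lower in unstimulated GM-DC (all genes 18% and 16.2%). With LPS 2 were higher and 1 lower (all genes 20.9% and 15.4%), and none differed 2-fold. Sec61b, a small subunit of the channel, was 1.34-fold higher in unstimulated GM-DC (adjusted p = 0.00893) and 1.5-fold higher with LPS (adjusted p = 0.000726). Ssr1, a subunit of the associated TRAP complex, was 1.38-fold lower (adjusted p = 0.00929) and 1.45-fold lower (adjusted p = 0.00358). The unstimulated Ssr1 call was not made without array 3 of unstimulated GM-DC (adjusted p = 0.0552). Sec61a1, the pore itself, read 9.98, 10.12 and 9.56 in LPS-treated GM-DC and 9.42, 9.59 and 9.46 in LPS-treated GM-MF. The groups overlapped, and it was 1.32-fold higher in GM-DC (adjusted p = 0.0257), a call not made without array 1 or 2 of the former or array 1 or 3 of the latter (adjusted p 0.0714 to 0.131), after cyclic loess (0.26, adjusted p = 0.134) or with only the arrays compared (adjusted p = 0.057). The LPS responses of Sec61a1 differed by 0.63 ± 0.18 (adjusted p = 0.052), which was called with the replicate number as a block (adjusted p = 0.0368). LPS was called for none of the 3 in either cell type.

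**Figure D5:**
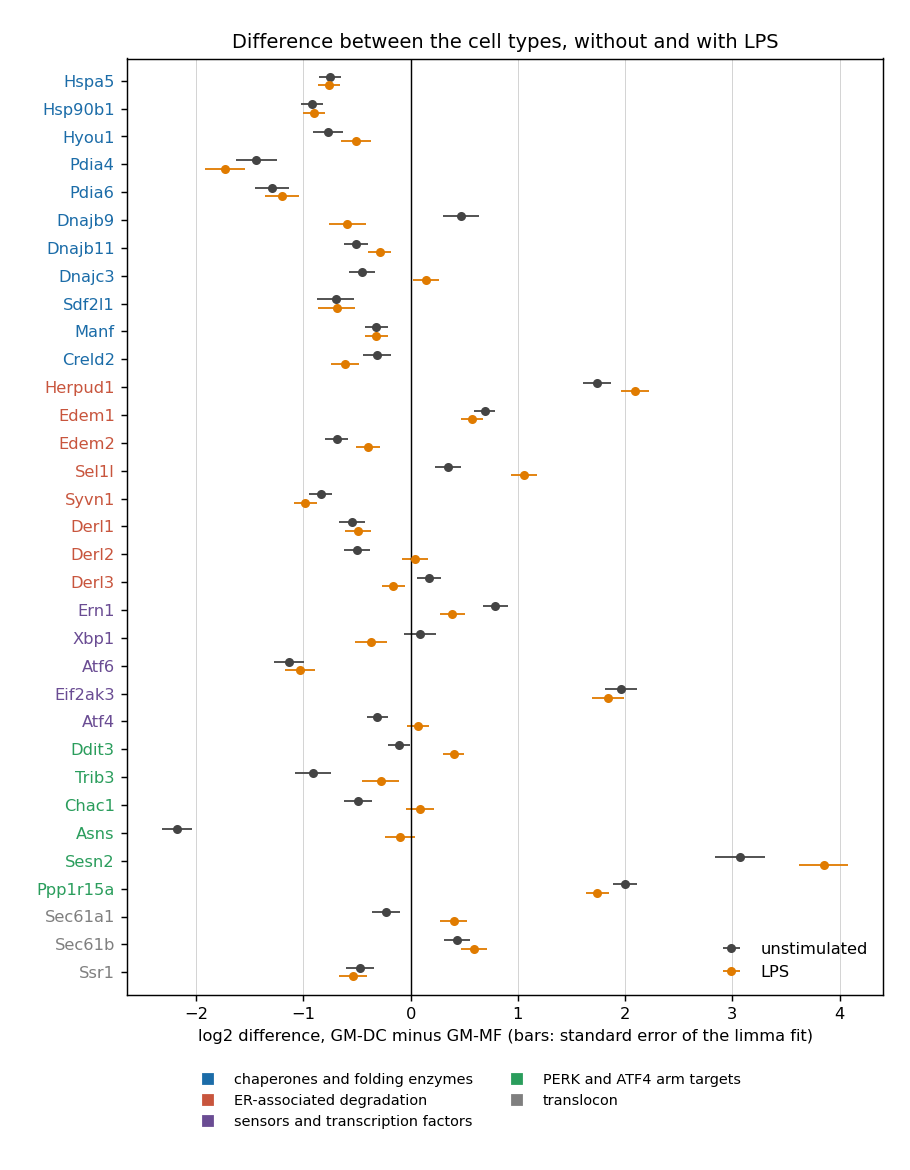
GM-DC minus GM-MF log2 difference of each of the 33 genes with its standard error, unstimulated and with LPS, grouped by role. Chaperones lie mostly left of 0, Sesn2 lies farthest right in both states, and Asns lies far left unstimulated and near 0 with LPS.

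Other genes of the same pathways were read from lists. Of 20 further ER chaperones and folding enzymes, 5 were higher and 10 lower in unstimulated GM-DC (all genes 18% and 16.2%). Fkbp11, a prolyl isomerase, differed most, at -3.53 without stimulation (adjusted p = 9.45e-11) and -3.37 with LPS. Ero1a, the oxidase that recharges disulfide isomerases, differed by -2.38 and -2.30. Pdia5, a further isomerase, was higher by 1.82 and 1.06, and Cnpy3, a co-chaperone of GRP94 for Toll-like receptors, was higher by 0.69 and 1.23. Cnpy3 fell with LPS in GM-MF (-0.98, adjusted p = 6.82e-05). Of 21 further translocon and signal peptide genes, 0 were higher and 15 lower in unstimulated GM-DC (all genes 18% and 16.2%). The oligosaccharyltransferase subunits Rpn1 (-1.48) and Rpn2 (-0.81) led. With LPS 1 was higher and 14 lower (all genes 20.9% and 15.4%). LPS itself passed for 1 of them, lowered in GM-MF, where 10.8% of all genes were lowered.

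Of 17 further degradation genes, 7 were higher and 4 lower in unstimulated GM-DC (all genes 18% and 16.2%). Man1b1, a mannosidase, was higher by 0.94, and the ligase Rnf139 differed by -1.41. LPS raised Rnf139 in GM-DC (0.71, adjusted p = 0.00121) and in GM-MF (0.78, adjusted p = 0.000292). The LPS response of Vcp, the ATPase that pulls proteins out of the membrane, differed between the cell types by 0.56 (adjusted p = 0.0226). Of 10 further ER export genes, 1 was higher and 6 were lower in unstimulated GM-DC (all genes 18% and 16.2%). Sec24d, a cargo adaptor of COPII coats, differed by -1.54 (adjusted p = 9.55e-08), fell with LPS in GM-MF (-0.85, adjusted p = 0.000209) and had responses that differed by 0.76 (adjusted p = 0.015).

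Among 14 further sensors and regulators, 2 were higher and 8 lower in unstimulated GM-DC (all genes 18% and 16.2%). Mbtps1, the protease that cuts ATF6, was higher without stimulation (0.74) and with LPS (0.85). Cebpb, a partner of ATF4 on its sites, differed by -2.72 without stimulation (adjusted p = 7.73e-09) and -4.01 with LPS (adjusted p = 1.13e-10). LPS lowered it in GM-DC (-0.80, adjusted p = 0.00879), and its responses differed by -1.29 (adjusted p = 0.0045). Atf3, a stress factor downstream of ATF4, fell with LPS in GM-DC (-1.01, adjusted p = 0.000678). Ppp1r15b, the constitutive counterpart of GADD34, rose in GM-DC (0.45, adjusted p = 0.00775) and in GM-MF (1.20, adjusted p = 7.82e-07). Eif2ak4 (GCN2), the eIF2 alpha kinase that senses amino acid shortage, fell in GM-MF (-0.91, adjusted p = 0.000767).

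Among 20 further ATF4 target genes, LPS raised 3 and lowered 6 in GM-MF and raised 2 and lowered 1 in GM-DC, and the response differed for 7, of which 5 were more positive in GM-DC. All genes were called at 6.54% and 10.8% in GM-MF, 5.23% and 4.49% in GM-DC, and 4.53% and 3.06% for the responses, so the GM-DC counts are near the share of all genes. Mthfd2, of mitochondrial folate metabolism, fell in GM-MF (-0.81, adjusted p = 9.15e-05), and its responses differed by 1.08 (adjusted p = 0.000416). For Slc7a5, an amino acid transporter, LPS gave a rise in GM-DC (0.64, adjusted p = 0.00805) and responses that differed by 0.78. Others moved the opposite way: Nupr1, a stress-induced regulator, rose in GM-DC (1.86) and in GM-MF (1.21). Psat1, of serine synthesis, rose in GM-MF (0.76, adjusted p = 0.00242). Slc7a11, the cystine transporter, fell in GM-DC (-0.65, adjusted p = 0.00147), with responses that differed by -0.91.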

How the data were processed

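RNA of 12 samples was hybridised to Affymetrix Mouse Gene 1.0 arrays, 3 in each of 4 groups. Per the submitters' processing notes, R 3.0.2 and RMA were used, and the deposited log2 values of 35556 probe sets were taken as such. The log base was read from their range, 1.18 to 13.7; the background and summary settings are not given in the sources used here. Of the probe sets, 21789 carried 1 gene symbol, 1621 several and 12146 none, by the platform annotation, and 21698 matched a RefSeq gene of GRCm38.p6 by Entrez number. Keeping the probe set with the highest mean gave 19938 genes, among them 999 with several sets. Of the 33 genes, 3 had several: Pdia4, Dnajc3 and Sec61b.

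One limma model (limma 3.58.1 in R 4.3.3, 4 group means, 12 arrays, 8 residual degrees of freedom, no trend) gave the 5 comparisons, two-sided, adjusted over all genes by Benjamini-Hochberg. It was tested on simulated data. An exact permutation test of 3 against 3 arrays cannot go below p = 0.1, so none is given. Precision is limited by the number of arrays. Replicates of a group correlated at 0.993 to 0.996, with a median SD of 0.121 to 0.138.

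Genes named from the 7 pathway lists (112 of 122 entries measured) were, per comparison, up to 2 called genes with the largest difference in each direction whose groups did not overlap; all 33 genes were described. Of 39 marker entries 36 were measured. Members, lists and markers were chosen with earlier results of these data known. Deviations of arrays with the same replicate number correlated above 0.1 in every pair within GM-DC (0.119 to 0.363; different numbers -0.25 to 0.164) and within GM-MF (0.104 to 0.257; different numbers -0.216 to 0.0254). By the rule that every same-number pair exceeds 0.1 the numbers were taken to pair the LPS and unstimulated arrays, although in GM-DC the ranges overlap. Between the cell types they did not, over all genes (-0.168 to 0.0117 unstimulated, -0.0047 to 0.156 with LPS). The main tests of LPS and of the difference of responses do not use the pairing within each cell type. It enters only as an alternative, with the replicate number as a block. Alternatives covered normalization, filters, probe set choice, variance settings, pairing and leaving out each of 12 arrays. Of these, 2 were added after seeing the data: a replicate block within each cell type, and leaving out array 3 of every group.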

Additional observations from a re-analysis of the deposited data

Results flagged for a closer look

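For 5 of the 33 genes the LPS response differed between the cell types by the test of the difference itself, limma's interaction contrast. Of all 19938 genes 1514 were called by it. Of the 9969 genes with a mean above the median, fitted alone, 1769 were called. The count of 5 is therefore not read as a trait of the 33 genes. The difference, GM-DC minus GM-MF, was 2.08 ± 0.20 SE for Asns (adjusted p = 1.3e-05), which fell in GM-MF and was not called in GM-DC. It was -1.06 ± 0.24 for Dnajb9 (adjusted p = 0.0135), which rose in GM-MF and was not called in GM-DC. It was 0.71 ± 0.17 for Sel1l (adjusted p = 0.0179) and 0.59 ± 0.16 for Dnajc3 (adjusted p = 0.0379), which rose in GM-DC and were not called in GM-MF. It was 0.51 ± 0.13 for Ddit3 (adjusted p = 0.0315), which fell in GM-MF and was not called in GM-DC. Of these, Asns and Dnajb9 were called under every alternative run.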

How the results depend on the processing

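Of 77 calls over the 33 genes and 5 comparisons, 54 held under every alternative run and 23 were lost in at least 1; of 88 values not called, 12 were called in at least 1. No called value changed sign among 3851 recomputed values. With a fold of at least 2 also required, 4 genes were higher and 4 lower in unstimulated GM-DC, and 5 and 3 with LPS. Of all 19938 genes, 2533 passed this rule in either direction without stimulation and 2572 with LPS. By this rule LPS raised 0 and lowered 1 of the 33 genes in GM-DC, and raised 0 and lowered 3 in GM-MF. Of all genes, 415 passed it for LPS in GM-DC and 633 in GM-MF, in either direction. In GM-DC 1 response of the 33 was more positive (Asns) and 1 more negative (Dnajb9), beside 649 of all genes in either direction. LPS raised 1 gene in GM-DC when only the arrays compared were fitted, and 1 to 4 with 1 array left out. The responses more positive in GM-DC numbered 2 after median centring and 7 with array weights. They numbered 7 when genes whose mean fell below the median were dropped, 7 when a gene needed 3 arrays over the median of the table, and 1 to 6 with 1 array left out. The cause was not tested.

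With the replicate block over all 12 arrays, 9 genes were higher and 19 lower in unstimulated GM-DC, and 10 higher and 16 lower with LPS. Xbp1 was added there (-0.37, adjusted p = 0.00741), though over all genes the numbers do not pair the arrays of the cell types. Xbp1 itself was lowest on the array numbered 3 in each group (7.98, 7.43, 7.98 and 7.77). With the replicate block within each cell type, 8 responses were more positive in GM-DC. The block changed no other call beyond those given with the genes. Without array 3 of every group, added after seeing the data, 7 and 18 genes were higher and lower in unstimulated GM-DC and 9 and 13 with LPS. LPS then raised 2 and lowered 4 in GM-DC and raised 2 and lowered 7 in GM-MF. No longer called without stimulation were Sec61b (adjusted p = 0.15), Sel1l (0.201) and Manf (0.173). With LPS the cell type calls of Dnajb9 (0.0924), Dnajb11 (0.0846), Manf (0.103) and Ern1 (0.0965) were lost. LPS calls lost were Hspa5 (0.0775), Dnajc3 (0.0557) and Ern1 (0.0542) in GM-DC, and Hspa5 (0.109), Trib3 (0.119) and Chac1 (0.0866) in GM-MF. The response differences of Dnajc3 (0.0724) and Ddit3 (0.128) were lost too. Calls were gained by Xbp1 between the LPS-treated cell types, Sesn2 and Sec61a1 in GM-DC, and the responses of Derl2, Sesn2 and Sec61a1. The fit on only the arrays compared equals the one reported for the difference of responses and was not run for it. With 3 arrays a group, a difference that was not called is not shown to be absent.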

Other observations

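Cytosolic heat shock genes answer unfolded proteins outside the ER. Of 10 measured, 4 were higher, 1 was lower and 5 did not pass in unstimulated GM-DC, where 18% of all genes were higher and 16.2% lower. Bag3, a co-chaperone of Hsp70, was the lower one (-0.51, adjusted p = 0.00899), and with LPS it was higher in GM-DC (0.63, adjusted p = 0.00172). Hspa1a, the inducible Hsp70, was higher in GM-DC by 0.91 ± 0.13 without stimulation (adjusted p = 3.33e-05) and by 1.46 with LPS (adjusted p = 2.18e-07). LPS raised it by 1.19 in GM-DC (adjusted p = 1.93e-05) and by 0.65 in GM-MF (adjusted p = 0.00213). Hspb1, a small heat shock protein, rose by 0.77 and 0.93. Bag3 fell by 0.83 in GM-MF (adjusted p = 0.000546), and its LPS responses differed by 1.14 (adjusted p = 0.00172). Hsph1, an exchange factor of Hsp70, fell by 0.73 in GM-DC (adjusted p = 0.000141).

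The array numbered 3 held the lowest value of its group for 9 of the 11 ER chaperones in unstimulated GM-DC, 11 with LPS, 6 in unstimulated GM-MF and 8 with LPS. Over all genes these shares were 36.5%, 39.7%, 31.4% and 34%.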
